A study of Mus musculus with 20 samples.

Results

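Hepatocytes hold their identity through a small set of transcription factors that bind each other's genes and the genes of liver function. The set described here is the 9 genes Hnf4a, Cebpa, Foxa1, Foxa2, Foxa3, Nr5a2, Prox1, Onecut1 and Nr1i3, chosen by symbol, and all 9 were found among the 32400 genes of the deposited table. HNF4A is a nuclear receptor needed for most liver-specific gene expression, CEBPA drives urea cycle and gluconeogenic genes, and the FOXA proteins are pioneer factors that open liver chromatin. NR5A2 (LRH-1) controls bile acid and cholesterol genes, NR1I3 (CAR) is the receptor that switches on drug-metabolising enzymes, PROX1 is a homeobox corepressor of metabolic genes, and ONECUT1 (HNF6) helps to specify hepatocytes and bile duct cells and is controlled by growth hormone in rodent liver.

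The libraries came from the livers of C57BL/6NTac mice and were poly(A) mRNA libraries read single-end. In the HFHF Flcn gRNA group (n = 8), mice were given an AAV8 vector (adeno-associated virus, a serotype that reaches hepatocytes) with a guide RNA against Flcn and were fed a high-fat, high-fructose (HFHF) diet. In the HFHF control group (n = 7), mice were given phosphate-buffered saline and the same diet, and no vector is named for them, so the guide comparison also differs in the vector. The chow control group (n = 5) was left untreated on standard chow, so the diet comparison also differs in the saline treatment. The sources used here do not give the nuclease, its promoter, the guide sequence, or the age, sex and time of tissue collection of the mice. Nor do they say that each library is a separate animal, so a p-value reflects only how these libraries spread, which may be technical. Library totals were 13974379 to 19586576 expected counts in gRNA, 15244760 to 18194089 in HFHF control and 14131976 to 16285324 in chow livers. The targeted gene Flcn, which encodes folliculin, a regulator of lysosomal signalling, ranged over 14.1 to 22 CPM (counts scaled to library size with TMM factors) in gRNA and 17.8 to 26.4 CPM in HFHF control livers (log2 fold change -0.22, SE 0.12, adjusted p = 0.14 by edgeR's quasi-likelihood test), a difference that did not pass the threshold. In chow livers Flcn ranged over 17.3 to 32.4 CPM, and gRNA against chow gave -0.32 (SE 0.13, adjusted p = 0.05 by edgeR after rounding, just under the threshold and so called lower). An exact two-sided permutation of the libraries, not adjusted, gave p = 0.0466 for Flcn in gRNA against HFHF control and p = 0.0855 in gRNA against chow. One title, that of gRNA replicate 8, differs from the others in its second field, and the gRNA contrasts were also fitted without it.

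Of the labelled tissue, the 12 hepatocyte markers summed to 72085 to 105632 CPM in gRNA, 68068 to 90863 CPM in HFHF control and 98411 to 123770 CPM in chow livers. The 7 markers of pancreatic acinar cells summed to 0 to 0.11 CPM in gRNA, 0 to 0.061 CPM in HFHF control and 0 to 0.378 CPM in chow livers. Of these, 3 (Pnlip, Cel and Clps) were at 0 in every library. Stellate cell markers summed to 267 to 413 CPM in gRNA, 676 to 973 CPM in HFHF control and 205 to 259 CPM in chow livers. Macrophage and monocyte markers summed to 277 to 590 CPM in gRNA, 306 to 672 CPM in HFHF control and 119 to 219 CPM in chow livers. In gRNA against HFHF control, 6 of 12 hepatocyte markers were higher and 1 lower, 0 of 12 stellate markers higher and 10 lower, and 2 of 12 macrophage markers higher and 5 lower. In HFHF control against chow, these counts were 1 higher and 9 lower, 12 higher and 0 lower, and 9 higher and 1 lower. Of all genes tested, 19.6% were higher and 19% lower in the first of these contrasts, and 28.1% higher and 28.9% lower in the second. Cholangiocyte markers, which matter here because bile duct cells also express Onecut1, summed to 167 to 228 CPM in gRNA, 225 to 370 CPM in HFHF control and 172 to 229 CPM in chow livers. In these bulk samples, fewer hepatocytes and less RNA per hepatocyte cannot be told apart, and the part of cell makeup in the results below was not tested.

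The upstream windows of 4 members are shown first, since Hnf4a, Nr5a2 and Nr1i3 were lower in HFHF control than in chow livers and Onecut1 varied most between libraries. Each is the 250 bases before a RefSeq transcript start (GRCm38.p6, 5' to 3' on the gene's strand), with capitals marking a motif match on either strand. The Hnf4a window, chr2:163546905-163547154 on the plus strand, lies before the downstream start, which is the promoter used in adult liver. Those of Onecut1 (chr9:74861671-74861920) and Nr1i3 (chr1:171213720-171213969) are also on the plus strand, and that of Nr5a2 (chr1:136960449-136960698) is on the minus strand.
Hnf4a: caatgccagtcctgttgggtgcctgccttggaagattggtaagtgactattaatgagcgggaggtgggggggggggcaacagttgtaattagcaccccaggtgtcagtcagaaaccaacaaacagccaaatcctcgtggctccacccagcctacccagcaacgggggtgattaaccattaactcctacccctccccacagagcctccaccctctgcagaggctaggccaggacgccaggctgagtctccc
Nr5a2: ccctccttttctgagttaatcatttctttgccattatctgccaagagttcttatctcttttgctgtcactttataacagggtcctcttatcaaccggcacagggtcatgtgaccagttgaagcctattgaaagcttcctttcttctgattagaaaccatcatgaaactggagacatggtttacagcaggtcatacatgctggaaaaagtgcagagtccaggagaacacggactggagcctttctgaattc
Onecut1: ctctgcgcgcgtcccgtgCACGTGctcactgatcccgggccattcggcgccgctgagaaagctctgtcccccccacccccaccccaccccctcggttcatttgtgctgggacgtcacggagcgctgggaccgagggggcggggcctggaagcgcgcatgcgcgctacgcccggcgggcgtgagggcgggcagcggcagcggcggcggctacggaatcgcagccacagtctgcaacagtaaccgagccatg
Nr1i3: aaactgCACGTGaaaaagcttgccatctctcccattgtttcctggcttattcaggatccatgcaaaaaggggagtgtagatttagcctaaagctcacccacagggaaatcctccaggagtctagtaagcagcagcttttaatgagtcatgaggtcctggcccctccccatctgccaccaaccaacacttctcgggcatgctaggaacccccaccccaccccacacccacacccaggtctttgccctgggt
The words searched in all windows, on both strands, were the FOXA word TGTTTAC, the NR5A2 word AAGGTCA, the HNF4 word AAAGTCC, the ONECUT word ATTGAT and the E-box CACGTG, and no matches in the members' windows overlapped. The printed windows of Hnf4a and Nr5a2 held none of these words. The HNF1 word GTTAAT was planned but left out of the search, so it is not in capitals and its share of all windows is not known. It does stand in the printed windows of Hnf4a (as ATTAAC, its other strand) and Nr5a2. The E-box CACGTG, a word that clock and bHLH factors bind, stood 244 bases before the Nr1i3 start and 232 bases before the Onecut1 start, and in 6.02% of the 32851 windows of all genes. Among the 14 windows of the 9 members, the FOXA word was found in that of Foxa1 (141 bases before the start, 3.17% of all windows). The ONECUT word (6.72%) stood 59 bases before the upstream Hnf4a start, whose window is not printed, and 213 bases before the most upstream Foxa2 start. The NR5A2 word (4.08%) and the HNF4 word (3.58%) had no match in the 14 windows.

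**Figure D1:**
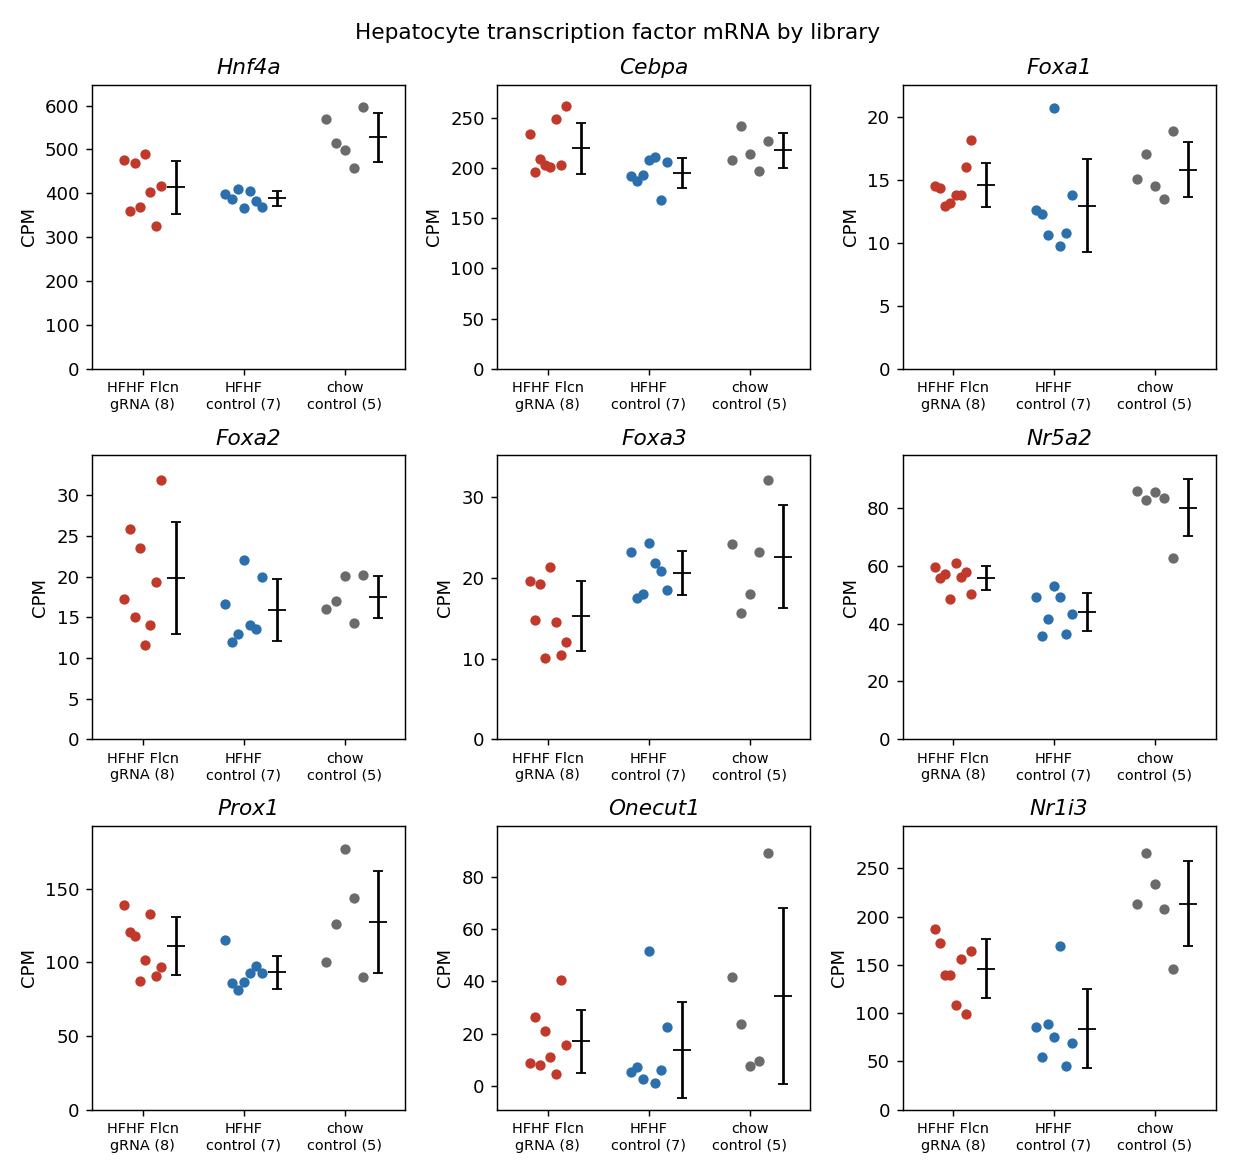
Level of each of the 9 factors in CPM scaled with TMM factors, 1 point per library, with the gRNA group left of the HFHF control and chow groups; bars give the mean and SD. Nr5a2 in all 8 gRNA libraries (48.6 to 60.9 CPM) and all 7 HFHF control libraries (35.8 to 53 CPM) lay below all 5 chow libraries (62.6 to 86 CPM), and Onecut1 spread over 0.838 to 51.8 CPM within HFHF control alone.

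The order of the factors by length-scaled level (TPM, used within a group only) was led by Hnf4a, Cebpa and Nr1i3 in every group. In gRNA livers Hnf4a was at 164 ± 24.7 and Cebpa at 159 ± 12 TPM (SD, n = 8), with overlapping ranges. Nr1i3 followed at 63 ± 11.6 TPM and Prox1 at 25.4 ± 4.69 TPM, again with gRNA ranges that did not overlap between Cebpa, Nr1i3 and Prox1. The length used was that of all annotated exons merged, 4414 bases from 61 exon records for Nr1i3 and 2636 bases from 3 for Cebpa. A merged length can exceed that of the transcripts present, so these places depend on the length chosen. In chow livers Hnf4a stood apart at 208 ± 21.6 TPM, above Cebpa at 157 ± 12.7 TPM (SD, n = 5). The FOXA genes, Nr5a2, Prox1 and Onecut1 had mean levels below 30 TPM in every group, and most neighbours in that order overlapped.

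The question put first by the design is what the Flcn guide did to livers on the HFHF diet. Of the 9 factors, 2 were higher and 1 lower in gRNA than in HFHF control livers by adjusted p under 0.05 (edgeR's quasi-likelihood test, Benjamini-Hochberg adjusted over 13667 genes), namely Nr5a2 and Nr1i3 higher and Foxa3 lower. In the same contrast 38.6% of all genes were called, 19.6% higher and 19% lower, so 3 of 9 is near the background. For 0 of the 9 did the groups' ranges stand fully apart, as they did for 11% of all genes (5.04% higher, 6.01% lower). The remaining 6 were Hnf4a, Cebpa, Foxa1, Foxa2, Prox1 and Onecut1. All members were above the low-count filter.

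Nr5a2 (ENSMUSG00000026398, chr1:136842571-136960448 on GRCm38, as for all loci here, minus strand) had a lowest, median and highest level of 48.6, 56.7 and 60.9 CPM in gRNA livers, against 35.8, 43.4 and 53 CPM in HFHF control livers. Of the 8 gRNA libraries 6 lay above all HFHF control libraries, though the ranges overlapped. The log2 fold change was 0.34 (SE 0.09, 95% interval 0.16 to 0.52, adjusted p = 0.00327 by edgeR; exact two-sided permutation p = 0.00218). Scaling by library totals without TMM factors, an alternative added after the data were seen, gave 0.15 with adjusted p = 0.174 and moved the median of all genes to -0.175.

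Nr1i3 (ENSMUSG00000005677, chr1:171213970-171220701, plus strand) had 99.2, 148 and 187 CPM as the lowest, median and highest level in gRNA livers, against 44.9, 75.7 and 170 CPM in HFHF control livers. All 8 gRNA libraries were above the HFHF control median, and 2 were above every HFHF control library. The high HFHF control value was replicate 5, with the next at 88.3 CPM. The log2 fold change was 0.80 (SE 0.23, 95% interval 0.32 to 1.28, adjusted p = 0.00989 by edgeR; exact two-sided permutation p = 0.00466), and 0.63 with library totals (adjusted p = 0.0214). Exons of Nr1i3 overlap those of Tomm40l on the opposite strand, and whether the counting used strand is not stated. Tomm40l, which encodes a mitochondrial import channel protein, moved the other way, at 9.64 ± 1.84 CPM in gRNA and 12 ± 1.7 CPM in HFHF control livers (log2 fold change -0.32, adjusted p = 0.0277 by edgeR).

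Foxa3 (ENSMUSG00000040891, chr7:19013284-19023538, minus strand), a FOXA gene of liver and gut endoderm, had a lowest, median and highest level of 10.1, 14.7 and 21.3 CPM in gRNA livers and 17.5, 20.9 and 24.3 CPM in HFHF control livers. Of the gRNA libraries 5 lay below every HFHF control library. The log2 fold change was -0.44 (SE 0.17, 95% interval -0.78 to -0.09, adjusted p = 0.0442 by edgeR; exact two-sided permutation p = 0.0159). This call sat close to the threshold and was lost in 9 of the 15 fits that left out 1 library, which were those without gRNA replicate 2, 4, 6, 7 or 8 or without HFHF control replicate 1, 4, 5 or 6.

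The other pioneer genes did not pass the test. Foxa1 was at 12.9, 14.1 and 18.2 CPM in gRNA livers, against 9.77, 12.3 and 20.7 CPM in HFHF control livers (log2 fold change 0.18, SE 0.13, adjusted p = 0.296 by edgeR). Without HFHF control replicate 4, the library with 20.7 CPM, the difference was 0.33 with adjusted p = 0.00914. Foxa2 was at 11.6, 18.2 and 31.9 CPM in gRNA livers and 11.9, 14.1 and 22 CPM in HFHF control livers, with a 95% interval of -0.08 to 0.72 for the log2 fold change.

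Hnf4a (ENSMUSG00000017950, chr2:163506808-163572910, plus strand) was at 326, 409 and 489 CPM in gRNA livers, against 366, 388 and 409 CPM in HFHF control livers. The gRNA libraries lay on both sides of the HFHF control range, 4 above it and 2 below it, and the mean log2 fold change was 0.09 (95% interval -0.08 to 0.26, adjusted p = 0.423 by edgeR). Cebpa was at 196, 206 and 262 CPM in gRNA livers, against 168, 193 and 211 CPM in HFHF control livers. All 8 gRNA libraries were above the HFHF control median of Cebpa, but the log2 fold change of 0.17 (SE 0.07) had an adjusted p of 0.0627 by edgeR. Its exact two-sided permutation p, not adjusted, was 0.0392. Prox1 had a 95% interval of -0.02 to 0.52, with 87.1 to 139 CPM in gRNA and 81.2 to 115 CPM in HFHF control livers. For Prox1 the adjusted p by edgeR was 0.131 and the exact two-sided permutation p, not adjusted, was 0.0494.

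**Figure D2:**
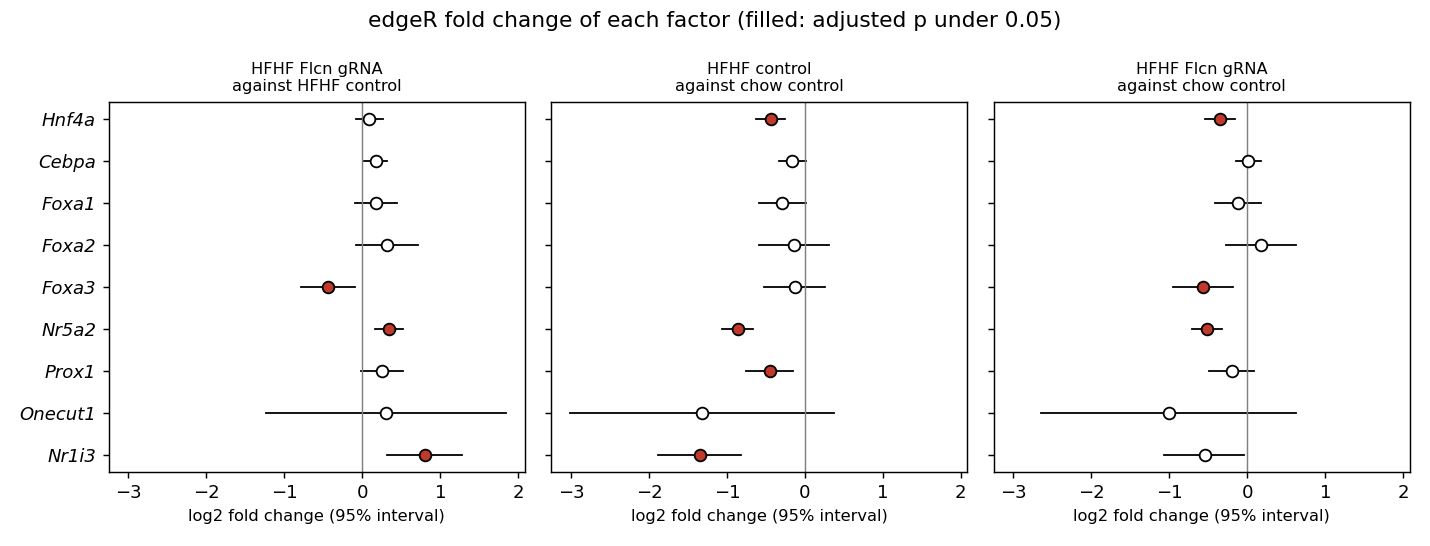
log2 fold change of each factor with its 95% interval in the 3 contrasts, where filled points have adjusted p under 0.05 by edgeR's quasi-likelihood test. Of the filled points, Nr5a2 (0.34) and Nr1i3 (0.80) lay above 0 in gRNA against HFHF control, Foxa3 (-0.44) lay below it, and all filled points in the 2 contrasts with chow lay below 0; Nr5a2 in the first contrast, and Hnf4a and Prox1 in the second, lost the call with library totals.

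Against chow, the HFHF control livers had lower levels of 4 of the 9 factors and higher levels of none. These were Hnf4a, Nr5a2, Prox1 and Nr1i3, and in this contrast 57% of all genes were called, 28.1% higher and 28.9% lower. The groups did not overlap for Hnf4a and Nr5a2, as for 37% of all genes (18.8% higher, 18.1% lower).

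For Nr5a2, the lowest, median and highest HFHF control levels of 35.8, 43.4 and 53 CPM stood against 86, 82.7, 85.7, 83.3 and 62.6 CPM in the 5 chow livers. All 7 HFHF control libraries were below the lowest chow library. The log2 fold change was -0.86 (SE 0.10, 95% interval -1.06 to -0.66, adjusted p = 1.35e-07 by edgeR; exact two-sided permutation p = 0.00253, the smallest that 792 regroupings can give).

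Hnf4a was at 366, 388 and 409 CPM in HFHF control livers, against 570, 514, 499, 457 and 597 CPM in chow livers. Every HFHF control library was below every chow library, with a log2 fold change of -0.44 (SE 0.09, 95% interval -0.63 to -0.25, adjusted p = 0.00034 by edgeR). With library totals the difference was -0.16 with adjusted p = 0.0985, under a scaling that put the median of all genes at 0.266. The antisense transcript Hnf4aos, which runs through the Hnf4a locus without exon overlap, had 0.122 to 1.23 CPM in HFHF control livers and 2.65 to 5.44 CPM in chow livers. Its log2 fold change of -2.67 (SE 0.31, adjusted p = 2.10e-07 by edgeR) was larger in size than that of Hnf4a itself.

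Nr1i3 was at 44.9, 75.7 and 170 CPM in HFHF control livers, against 213, 266, 234, 208 and 146 CPM in chow livers. Of the HFHF control libraries 6 were below all chow libraries, and replicate 5 lay within them. The log2 fold change was -1.35 (SE 0.25, 95% interval -1.88 to -0.82, adjusted p = 0.000173 by edgeR). Tomm40l was higher by 0.55 in the same comparison (adjusted p = 0.00118 by edgeR), so the genes that share exon sequence moved in opposite directions.

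Prox1 was at 81.2, 92.9 and 115 CPM in HFHF control livers, against 100, 126, 177, 144 and 90.2 CPM in chow livers. The ranges overlapped, and the log2 fold change was -0.45 (SE 0.14, adjusted p = 0.0111 by edgeR). It was -0.27 with adjusted p = 0.0944 without chow replicate 3, the library with 177 CPM, and -0.17 with adjusted p = 0.331 with library totals. The antisense gene Prox1os, whose exons overlap those of Prox1 on the opposite strand, was also lower (-0.57, SE 0.20, adjusted p = 0.0197 by edgeR). Its level was 2.16 to 3.57 CPM in HFHF control and 2.88 to 5.07 CPM in chow livers.

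Cebpa had 168 to 211 CPM in HFHF control and 197 to 242 CPM in chow livers (log2 fold change -0.16, 95% interval -0.33 to 0.01, adjusted p = 0.102 by edgeR). Its exact two-sided permutation p, not adjusted, was 0.0328. Neither Foxa2 (-0.14, SE 0.22) nor Foxa3 (-0.13, SE 0.19) passed the test. Foxa1 did not pass either (-0.29, SE 0.14, adjusted p = 0.0905 by edgeR), and it had -0.44 with adjusted p = 0.0012 without HFHF control replicate 4.

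The gRNA livers against chow had lower levels of 3 factors, Hnf4a, Foxa3 and Nr5a2, and higher levels of none, where 42.6% of all genes were called, 20.9% higher and 21.7% lower. Hnf4a had 326 to 489 CPM in gRNA and 457 to 597 CPM in chow livers, with a log2 fold change of -0.35 (SE 0.09, adjusted p = 0.00342 by edgeR). For Nr5a2 the log2 fold change was -0.52 (SE 0.09, adjusted p = 0.000114 by edgeR), and all 8 gRNA libraries were below all chow libraries, a separation found for 18% of all genes (9.01% higher, 8.98% lower). Foxa3 had a log2 fold change of -0.57 (SE 0.18, adjusted p = 0.0171 by edgeR), which became -0.39 with adjusted p = 0.0939 without chow replicate 5. Cebpa did not pass the test, with means of 220 ± 25.2 CPM in gRNA and 218 ± 17.6 CPM in chow livers and a 95% interval of -0.15 to 0.18 for the log2 fold change. Nr1i3 was at 146 ± 30.6 CPM in gRNA and 214 ± 43.8 CPM in chow livers, a log2 fold change of -0.55 with adjusted p = 0.079 by edgeR. Its 95% interval was -1.07 to -0.04, and its exact two-sided permutation p, not adjusted, was 0.0124, against 0.0342 for Foxa3. The contrasts with HFHF control and with chow share libraries, so the values stand side by side and no correlation between them is given.

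Onecut1 (ENSMUSG00000043013, chr9:74861921-74891781, plus strand) was the factor with the widest spread between libraries of a group. In gRNA livers its lowest, median and highest levels were 4.5, 13.4 and 40.5 CPM, in HFHF control livers 0.838, 5.92 and 51.8 CPM, and in chow livers the 5 levels were 41.8, 23.7, 7.49, 9.58 and 89.3 CPM. The highest was 9.02 times the lowest in gRNA, 61.8 times in HFHF control and 11.9 times in chow livers, where no other member exceeded 3.78 times. The 3 groups overlapped, and the interval of the log2 fold change was -1.24 to 1.84 for gRNA against HFHF control and -3.01 to 0.38 for HFHF control against chow (adjusted p = 0.779 and 0.173 by edgeR). Without HFHF control replicate 4, whose 51.8 CPM was the highest in its group, the first contrast was 1.20 with adjusted p = 0.194 and the second -2.22 with adjusted p = 0.02. The long noncoding gene Gm20649 overlaps Onecut1 exons on the same strand, at 0 to 5.55 CPM in gRNA, 0 to 2.52 CPM in HFHF control and 2.19 to 15.6 CPM in chow livers. Expected counts of both were often not whole, such as 116.165 for Onecut1 and 29.8355 for Gm20649 in gRNA replicate 1. How far the division of reads between them affects the Onecut1 levels was not tested.

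Libraries with more Onecut1 also had more Foxa1. Over the 20 libraries, after removal of group means, the correlation of log2 CPM was 0.80 (Pearson; permutation p = 0.00028, adjusted p = 0.0101 over 36 pairs of members) and Spearman's rho was 0.74 (permutation adjusted p = 0.0317). It was 0.80 again after the 2 libraries farthest from the median of Foxa1 were left out. Of the 36 pairs, only Foxa1 with Onecut1 and Foxa1 with Foxa2 passed by Pearson's r. Foxa1 with Foxa2 had r = 0.61 (permutation adjusted p = 0.0245), with rho = 0.62 (adjusted p = 0.0584), and r was 0.40 without 2 libraries. Across all 20 libraries with no removal of group means, Onecut1 was the gene most like Foxa1 among the genes tested, and Foxa1 the most like Onecut1 (r = 0.838).

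A gene picked after its values were seen moved with Onecut1. Cish, which growth hormone induces through STAT5 and which limits that signal, had 21.8, 15.7, 12.2 and 16.8 CPM in gRNA replicates 2, 4, 7 and 8, and 1.2 to 1.77 CPM in the other gRNA libraries. These were also the 4 gRNA libraries of highest Onecut1, at 26.3, 21.1, 40.5 and 15.7 CPM. In HFHF control livers, Cish was at 22.6 CPM in replicate 4 and 18.8 CPM in replicate 7, which also had the highest Onecut1, at 51.8 and 22.4 CPM. In chow livers Cish peaked at 10.4 CPM in replicate 5, where Onecut1 was 89.3 CPM. Chow replicates 1 and 2 came next in both genes, with Onecut1 at 41.8 and 23.7 CPM and Cish at 4.63 and 3.39 CPM. Chow replicates 3 and 4 were lowest in both. At similar Onecut1, Cish was lower in these chow libraries than in gRNA and HFHF control libraries. In gRNA and HFHF control livers Cish fell into separate clusters of libraries, so no pooled correlation is given. The part of growth hormone pulses in these values was not tested.

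**Figure D3:**
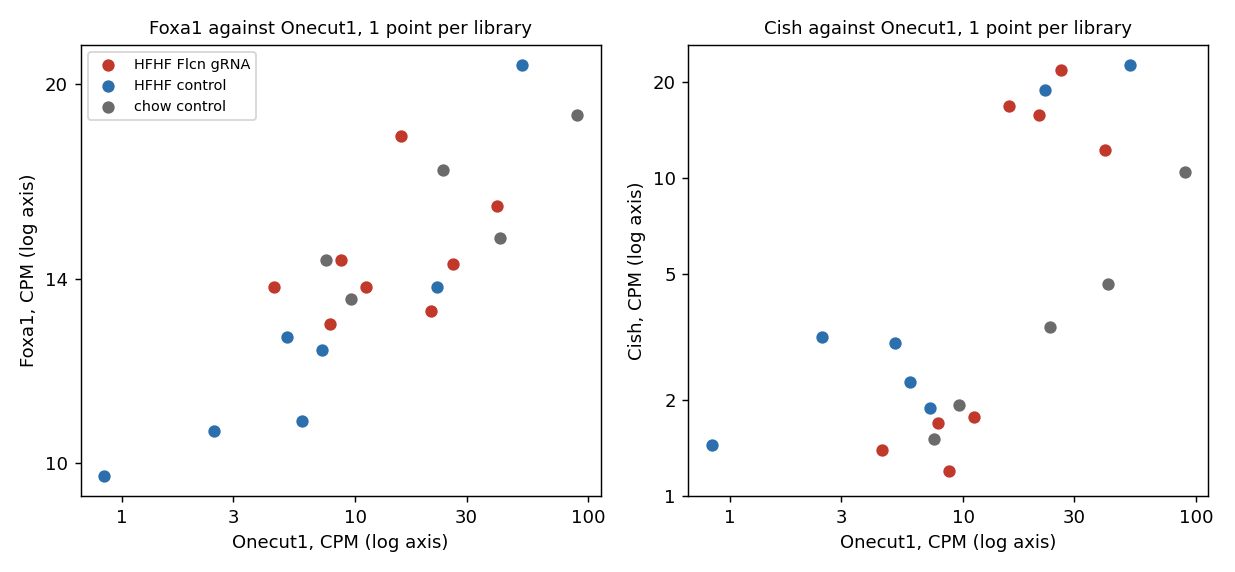
Foxa1 (left) and Cish (right) against Onecut1, all in CPM on log axes, 1 point per library coloured by group. Foxa1 ran from 9.77 CPM in the HFHF control library of lowest Onecut1 (0.838 CPM) to 20.7 CPM in HFHF control replicate 4, while Cish was at 10.4 CPM or more in 7 libraries, each with at least 15.7 CPM of Onecut1. Chow replicates 1 and 2 had 41.8 and 23.7 CPM of Onecut1 and 4.63 and 3.39 CPM of Cish, in the same order within their group.

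Genes of circadian output were read beside Nr1i3, also after the values were seen, since the PAR bZIP factors DBP, TEF and HLF are known to control its transcription in mouse liver. Within groups, the correlation with Nr1i3 over 20 libraries was 0.65 for Dbp, 0.69 for Tef and 0.73 for Hlf, and 0.58, 0.53 and 0.63 when the 2 libraries farthest from the median of Nr1i3 were left out. Spearman's rho was 0.52 for Dbp, 0.58 for Tef and 0.70 for Hlf. For Arntl, a core clock gene, r was -0.55, rho was -0.31, and r without those 2 libraries was -0.31. These genes were picked after their values were seen, so no p is given for the correlations. The adjusted p-values that follow, from edgeR's fit of all genes, do not allow for that choice. Dbp averaged 39 ± 18.7 CPM in gRNA, 28.5 ± 18.4 CPM in HFHF control and 1.89 ± 1.56 CPM in chow livers. Arntl, which peaks when Dbp is low, was at 7.68 ± 4.39 CPM in gRNA, 8.54 ± 4.79 CPM in HFHF control and 29.3 ± 4.58 CPM in chow livers. So Dbp rose by 3.89 and Arntl fell by 1.79 on the log2 scale in HFHF control against chow (adjusted p = 0.000211 and 0.000417 by edgeR), while Hlf fell by 0.28 (adjusted p = 0.0429) and Tef did not pass (0.64, adjusted p = 0.0557). In gRNA against HFHF control Hlf was higher by 0.64 (adjusted p = 5.12e-05 by edgeR), and Dbp (0.45, adjusted p = 0.483), Tef (0.41, adjusted p = 0.187) and Arntl (-0.15, adjusted p = 0.767) did not pass. Between groups Nr1i3 and Dbp went opposite ways, as Nr1i3 had a log2 fold change of -1.35 in HFHF control against chow. Dbp and Arntl differed between chow and both HFHF groups, and the time of tissue collection is not given. The part of time of day in the Nr1i3 levels, and in the other contrasts with chow, was not tested.

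Closest in pattern to Nr5a2 over all 20 libraries were Slc6a12 (r = 0.966), Insr (0.956) and Fyco1 (0.952), and to Nr1i3 were Ppm1k (0.958), Car5a (0.942) and Zbtb44 (0.937). For Hnf4a they were Eprs (0.923), Spin1 (0.919) and Zhx3 (0.914). These values contain the differences between groups.

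The factors work with other regulators, which were read as lists chosen with earlier results of these data known. Of 28 tested nuclear receptors, 8 were higher and 2 lower in gRNA than in HFHF control livers, with a list median of 0.11 against 0.01 for all genes. Of all genes 19.6% were higher and 19% lower, 38.6% called in all, so the number of receptors called is near the background and that of coregulators, given next, below it. They included Ppara, the fasting receptor of fatty acid oxidation, at 156 ± 21.7 CPM in gRNA and 90.3 ± 15.1 CPM in HFHF control livers (log2 fold change 0.79, SE 0.10, adjusted p = 4.29e-06 by edgeR). Thrb, the thyroid hormone receptor of liver, was higher by 0.42 and Nr3c1, the glucocorticoid receptor, by 0.28 (adjusted p = 0.000118 and 0.000125 by edgeR). This list split as 6 higher and 5 lower with upper-quartile scaling and as 3 higher and 7 lower with library totals.
Of 15 coregulators 4 were higher and 0 lower, led by Ppargc1a, a coactivator of HNF4A and PPARA, at 21.8 ± 6.15 CPM in gRNA and 8.41 ± 2.3 CPM in HFHF control livers (log2 fold change 1.37, adjusted p = 2.79e-05 by edgeR); with library totals 1 was higher and 4 lower. Other liver-enriched factors gave 3 higher and 3 lower of 25 (2 and 4 with upper-quartile scaling, 1 and 6 with library totals). Among the higher was Creb3l3, a factor of fasting lipid metabolism, at 174 ± 13.9 CPM in gRNA and 141 ± 9.46 CPM in HFHF control livers.

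In HFHF control against chow, the same lists gave 3 higher and 14 lower of 28 nuclear receptors, 2 higher and 8 lower of 15 coregulators and 4 higher and 14 lower of 25 other factors. Of all genes 28.1% were higher and 28.9% lower in this contrast, 57% called in all. With library totals the nuclear receptors split as 11 higher and 5 lower, the coregulators as 2 and 4, and the other factors as 6 and 4, or 5 and 7 with upper-quartile scaling. Creb3l3 had 141 ± 9.46 CPM in HFHF control and 185 ± 9.72 CPM in chow livers (log2 fold change -0.40, adjusted p = 2.54e-05 by edgeR). Nr3c1 was at 76.6 ± 4.91 CPM in HFHF control and 105 ± 1.84 CPM in chow livers. Pparg, the receptor of fat storage, was one of 3 higher receptors, at 21.4 ± 2.34 CPM in HFHF control and 10 ± 2.6 CPM in chow livers.

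Known targets of the factors were counted in the same way, with some genes on several lists, against 19.6% higher, 19% lower and 38.6% called of all genes in gRNA against HFHF control. For HNF4A targets, 14 of 23 were higher and 0 lower in gRNA than in HFHF control livers (median 0.31), a split of 8 and 2 with library totals. Slc10a1, the bile acid uptake carrier, had 326 ± 78.2 CPM in gRNA and 155 ± 31.6 CPM in HFHF control livers (log2 fold change 1.07, SE 0.15, adjusted p = 1.50e-05 by edgeR). The clotting factor gene F9 was higher by 0.32 and F13b by 0.47. For CEBPA targets, 6 of 14 were higher and 1, the acute phase gene Hp, lower, with the urea cycle gene Otc higher by 0.48 (adjusted p = 0.000127 by edgeR). Of 12 NR5A2 targets 4 were higher and 1 lower, with the sterol exporter gene Abcg8 at 259 ± 28.5 CPM in gRNA and 150 ± 36.4 CPM in HFHF control livers. Of 20 NR1I3 targets 7 were higher and 2 lower, and Cyp2c54, a drug-metabolising enzyme gene, was at 129 ± 73.6 CPM in gRNA and 21.8 ± 14.8 CPM in HFHF control livers (log2 fold change 2.57, SE 0.49, adjusted p = 0.000493 by edgeR). FOXA targets gave 4 higher and 0 lower of 11, and ONECUT1 targets 2 higher and 1 lower of 8; with library totals these became 1 and 1, and 0 and 1. The number called in the FOXA, ONECUT1, NR5A2 and NR1I3 lists is near the background.

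In HFHF control against chow, where 57% of all genes were called (28.1% higher, 28.9% lower), 4 of 23 HNF4A targets were higher and 14 lower, and 2 of 14 CEBPA targets were higher and 10 lower. Slc10a1 was at 155 ± 31.6 CPM in HFHF control and 519 ± 95.6 CPM in chow livers (log2 fold change -1.75, adjusted p = 4.09e-08 by edgeR), and Apoa4, an apolipoprotein gene, was one of the higher targets, at 2578 ± 500 CPM in HFHF control and 62.1 ± 23.6 CPM in chow livers. FOXA targets gave 1 higher and 7 lower of 11, NR5A2 targets 3 higher and 7 lower of 12, ONECUT1 targets 1 higher and 4 lower of 8, and NR1I3 targets 2 higher and 8 lower of 20, and the number called in the last 2 lists is near the background. Cyp2c54 had a log2 fold change of -4.60 (SE 0.56, adjusted p = 1.99e-06 by edgeR). With library totals, higher and lower counts were 6 and 10 for HNF4A, 2 and 6 for CEBPA, 2 and 4 for FOXA, 4 and 5 for NR5A2 and 3 and 8 for NR1I3 targets. Among NR5A2 targets the sterol exporters Abcg5 and Abcg8 moved against the list, at 180 ± 39.7 and 150 ± 36.4 CPM in HFHF control and 41.8 ± 6.37 and 55 ± 13.3 CPM in chow livers. In gRNA against chow, where 42.6% of all genes were called (20.9% higher, 21.7% lower), HNF4A targets gave 4 higher and 9 lower, CEBPA targets 1 higher and 7 lower and NR1I3 targets 1 higher and 9 lower.

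**Figure D4:**
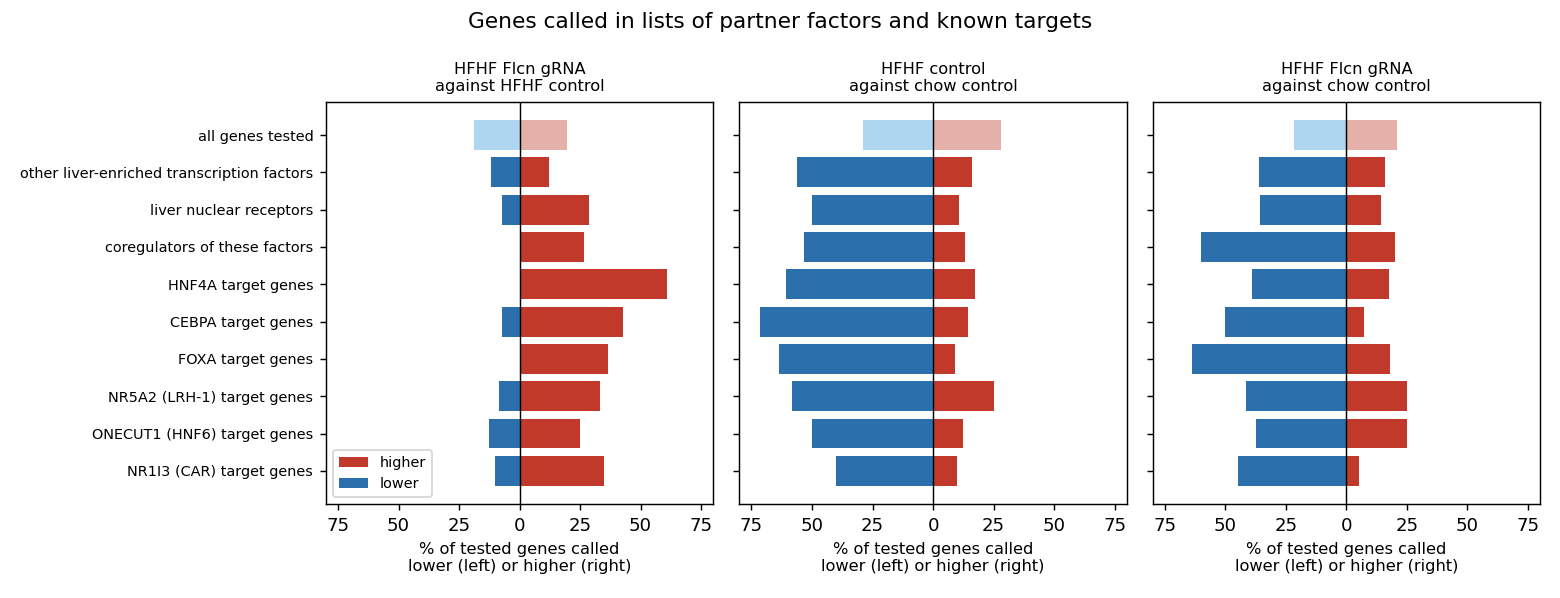
Share of tested genes called higher (right) or lower (left) by adjusted p under 0.05 in lists of partner factors and known targets, with all genes on top, for the 3 contrasts. In gRNA against HFHF control the HNF4A targets had 14 of 23 higher and 0 lower (8 and 2 with library totals), and in HFHF control against chow they had 4 higher and 14 lower, against 28.1% higher and 28.9% lower for all genes.

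Genes of fetal liver and liver progenitors, which hepatocytes silence as they mature, were mostly called in the opposite direction to the target lists. Of 10 tested, 1 was higher and 8 lower in gRNA than in HFHF control livers, and 8 were higher and 0 lower in HFHF control than in chow livers. Of all genes, 38.6% were called in the first of these contrasts (19.6% higher, 19% lower) and 57% in the second (28.1% higher, 28.9% lower). In gRNA against chow, 6 of the 10 were still higher and 0 lower, with a list median of 0.76, where 42.6% of all genes were called (20.9% higher, 21.7% lower). Sox4 was at 3.7 ± 1.01 CPM in gRNA and 13.5 ± 5.19 CPM in HFHF control livers (log2 fold change -1.87, SE 0.23, adjusted p = 3.66e-06 by edgeR). Spp1, a duct and macrophage gene as well, was at 40 ± 17.2 CPM in gRNA and 158 ± 54.6 CPM in HFHF control livers (log2 fold change -1.98, adjusted p = 1.16e-05 by edgeR). In the same comparison, 10 of 12 stellate cell markers and 5 of 7 tested cholangiocyte markers were lower and 0 higher, and Spp1, Epcam and Sox9 stand on the cholangiocyte list too. The part of those cell types in the list was not tested.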

How the data were processed

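Liver mRNA was measured in 20 libraries. The authors deposited expected counts per gene, of which 77.8% of values of at least 1 were whole, and the genome build was GRCm38 per the submitters' processing notes. Not given in the sources used here were the aligner, counting tool, annotation, strand use and any use of the adapters' molecular identifiers. Without them, copies made by PCR count as separate reads. Of 32422 features, 22 construct features (2.2e-06% of counts) were left out, and 1 column that matched no sample was not used. Symbols came from GENCODE on GRCm38 (32325 genes matched, 75 did not). Groups came from the diet and treatment labels.

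Counts were rounded, filtered with filterByExpr (13667 genes) and scaled with TMM factors. All 3 groups entered 1 robust quasi-likelihood fit (edgeR 4.0.16, R 4.3.3) with 17 residual degrees of freedom, and the common BCV (biological coefficient of variation) was 0.164. A gene was called at an adjusted p (Benjamini-Hochberg) under 0.05. CPM values use TMM-scaled totals, and TPM divides by the merged length of all annotated exons of a gene. Single genes were also tested by exact permutation of log2 CPM, and correlations by 100000 permutations within groups. The fit was also run on simulated counts with known changes, as a check of the code. Alternatives were upper-quartile scaling, DESeq2 1.42.0, limma-voom (limma 3.58.1), other filters, fits of 2 groups, leaving out each library, and library totals. The members and lists were chosen with earlier results of these data known. Named list genes were those of smallest p in each list, some of which are not reported here, and Cish and the clock genes were chosen after their values were seen. Promoters came from RefSeq (GRCm38.p6).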

Additional observations from a re-analysis of the deposited data

Results flagged for a closer look

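Of the 27 combinations of a member and a group, 4 had a library that stood apart from the rest by Dixon's criterion, where chance gives about 1 in 20. Onecut1 was at 51.8 CPM in HFHF control replicate 4, with the next library at 22.4 CPM. The same library had the highest Foxa1 of its group, at 20.7 CPM with the next at 13.8 CPM. Nr1i3 was at 170 CPM in HFHF control replicate 5, with the next at 88.3 CPM. Nr5a2 was at 62.6 CPM in chow replicate 5, the lowest of its group, with the next at 82.7 CPM, and that library also had the highest chow level of Onecut1 (89.3 CPM).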

How the results depend on the processing

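Of 549 member values under alternatives, 519 kept their direction and their side of the threshold. Library totals without TMM factors, added after the data were seen, left 2 of 9 members called lower in HFHF control against chow, where TMM scaling gave 4. They also turned the sign of uncalled differences, to -0.10 for Hnf4a, -0.01 for Cebpa and -0.02 for Foxa1 in gRNA against HFHF control, and to 0.12 for Cebpa, 0.15 for Foxa2 and 0.15 for Foxa3 in HFHF control against chow. The share of higher genes among all calls was 16.6%, 80.4% and 66.6% in the 3 contrasts with library totals, 37.8%, 60.7% and 55.6% with upper-quartile scaling, and 50.7%, 49.4% and 49.1% with TMM; the cause was not tested. Leaving out 1 library gave 2 to 3 members called in gRNA against HFHF control, 3 to 6 in HFHF control against chow and 2 to 3 in gRNA against chow, and 4632 to 5287, 7204 to 7614 and 5152 to 5921 genes called. It turned the sign of Onecut1 to -0.02 in gRNA against HFHF control (without gRNA replicate 7; range -0.02 to 1.20), of Cebpa to -0.01 and -0.00 in gRNA against chow (without gRNA replicate 6 or 8; range -0.01 to 0.08), and of Foxa3 to 0.05 in HFHF control against chow (without chow replicate 5; range -0.21 to 0.05). Foxa3 lost its call in gRNA against HFHF control without the low-count filter (adjusted p = 0.0743) and in gRNA against chow with only those groups fitted (0.0513), where Nr1i3 gained one (0.0157). No paired analysis was possible because the labels carry no replicate numbers that could match libraries between groups.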
